A study of Mus musculus with 16 samples.

Results

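Small leucine-rich proteoglycans were examined in footpad epidermis through 8 genes, Dcn, Bgn, Aspn, Lum, Fmod, Prelp, Ogn and Podn, chosen by symbol from the 50600 gene identifiers of the count table. Each symbol matched 1 Ensembl identifier, and all 8 were among the 22155 genes tested, which had at least 10 counts in total. Female C57/B6J mice were placed at 5 wk of age, for 3 wk, on a purified AIN-93M diet poor in ligands of the aryl hydrocarbon receptor (AhR-poor diet) or on that diet supplemented with 200 ppm of indole-3-carbinol, a precursor of AhR ligands (I3C diet). Injections into the footpad held 50 μl of PBS, either plain (vehicle) or containing 50 μg of the protease allergen papain, and epidermal cells were collected 6 hr later. There were 4 groups of 4 libraries, 16 in all. The epidermis was separated from the dermis with dispase and dead cells were removed. The paper reports by flow cytometry that nearly all of the cells were keratinocytes, taken as CD45- cells. Whether cells of other layers stayed attached is not given by the labels. Cages were not mixed between diets, so effects of diet and cage cannot be told apart. Library totals lay between 22500821 and 51844375 counts, and the detection floor of 3 counts corresponded to 0.0569 to 0.130 CPM, the counts scaled to the library total. The markers of basal and suprabasal keratinocytes were high in every group, with summed levels of at least 21100 and 18900 CPM per library, as the label of epidermal cells requires.

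Small leucine-rich proteoglycans are secreted proteins with a core of leucine-rich repeats, and most carry chondroitin, dermatan or keratan sulfate chains. They coat collagen fibrils, where they set fibril diameter and spacing, and they bind growth factors such as TGF-β. In skin they are known as products of dermal fibroblasts. The family is divided into classes, of which class I holds decorin (Dcn), biglycan (Bgn) and asporin (Aspn), class II lumican (Lum), fibromodulin (Fmod) and prolargin (Prelp), class III osteoglycin (Ogn) and class V podocan (Podn).

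Levels of these genes were higher with the AhR-poor diet than with the I3C diet, by larger estimates after papain. After papain, all 8 were called higher with the AhR-poor diet, at log2 fold changes between 1.21 for Podn and 6.96 for Fmod. After vehicle, 4 were called higher and 0 lower. Papain itself was followed by higher levels of 4 members on the AhR-poor diet and by lower levels of 3 members on the I3C diet. Podn stood apart from the others, with the smallest difference between the diets and lower estimates after papain on both diets. A gene was called here when the quasi-likelihood F test of edgeR gave a Benjamini-Hochberg adjusted p below 0.01 over all genes tested and the log2 fold change was beyond 1 in either direction. Each member was also compared by an exact permutation test (two-sided, on log2 CPM), whose smallest possible p with 4 libraries a group is 0.0286, the value obtained for every member with separate groups.

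**Figure D1:**
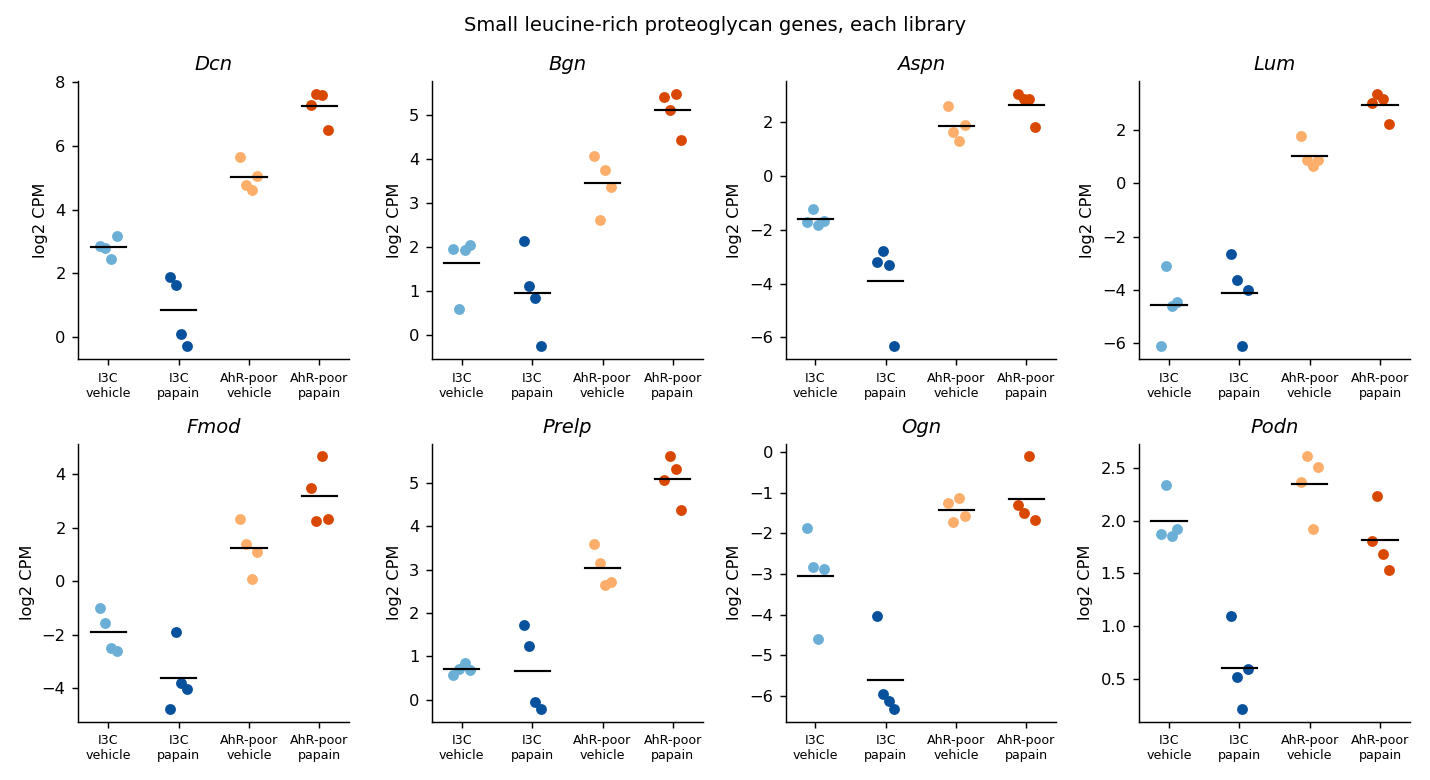
Level of each member in each library, in log2 CPM, with 1 panel per gene, 1 point per library and a line at the mean of the 4 libraries of a group. The points of the AhR-poor groups lie above those of the I3C groups in 7 of the 8 panels with either treatment, and the Podn panel differs, with overlapping vehicle groups.

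Decorin, the dermatan sulfate proteoglycan that decorates collagen fibrils, had the highest level per kb of exon on the AhR-poor diet. Dcn (ENSMUSG00000019929) lies on chromosome 10 of GRCm38 from 97479609 to 97518143, on the plus strand. In vehicle-treated mice on the I3C diet it was at 7.24, 6.88, 5.39 and 8.91 CPM in libraries T108, T109, T110 and T111. In papain-treated mice on the I3C diet it was at 3.65, 3.08, 1.06 and 0.796 CPM in T106, T113, T114 and T115. Among AhR-poor mice the vehicle libraries T100, T101, T102 and T103 had 50.4, 27.1, 24.7 and 33.2 CPM, and the papain libraries T104, T105, T107 and T112 had 156, 200, 196 and 90.1 CPM. The 4 groups did not overlap in any of the comparisons made, with the lowest levels in T114 and T115 and the highest in T105 and T107. Means were 7.11 ± 1.45, 2.15 ± 1.43, 33.8 ± 11.6 and 161 ± 51.1 CPM (SD, n = 4) in the order just given. Dcn was higher on the AhR-poor diet by 2.25 on the log2 scale after vehicle (standard error 0.39, edgeR adjusted p = 0.00494) and by 6.23 after papain (standard error 0.47, adjusted p = 1.36e-06), a fold of 75.0. Papain was followed by a rise of 2.25 on the AhR-poor diet (standard error 0.37, adjusted p = 3.83e-04) and by a log2 fold change of -1.73 on the I3C diet (standard error 0.44, adjusted p = 0.00747). The fall on the I3C diet was kept in 7 of 16 leave-one-out fits, its adjusted p reaching 0.0256 without T114. The vehicle difference between the diets passed in 9 of them.

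Biglycan, a close relative of decorin that carries chondroitin or dermatan sulfate chains, was likewise separate between the diets. Bgn (ENSMUSG00000031375) lies on chromosome X from 73483602 to 73495933, on the plus strand. In I3C mice it was at 3.85, 1.48, 3.81 and 4.08 CPM in the vehicle libraries T108, T109, T110 and T111 and at 4.36, 2.15, 1.77 and 0.821 CPM in the papain libraries T106, T113, T114 and T115. In AhR-poor mice it was at 16.8, 6.09, 13.5 and 10.2 CPM in the vehicle libraries T100 to T103 and at 42.5, 34.7, 44.7 and 21.6 CPM in the papain libraries T104, T105, T107 and T112. The I3C groups overlapped, since T106 after papain was above all 4 vehicle libraries, while the diets were separate with either treatment. The difference between the diets was 1.82 after vehicle, which did not pass (standard error 0.45, edgeR adjusted p = 0.0458), and 3.97 after papain (standard error 0.48, adjusted p = 5.96e-05). The rise of 1.62 after papain on the AhR-poor diet passed narrowly (standard error 0.42, adjusted p = 0.00901) and was kept in 5 of 16 leave-one-out fits. In I3C mice the estimate was -0.52 (standard error 0.48, adjusted p = 0.445).

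Asporin, which binds collagen and TGF-β and carries no glycosaminoglycan chain, was near the detection floor on the I3C diet and clearly counted on the AhR-poor diet. Aspn (ENSMUSG00000021388) lies on chromosome 13 from 49544443 to 49567565, on the plus strand. The I3C vehicle libraries T108 to T111 had 0.287, 0.408, 0.272 and 0.300 CPM, and the I3C papain libraries T106, T113, T114 and T115 had 0.0974, 0.128, 0.0856 and 0 CPM, which are 4, 4, 3 and 0 counts. The AhR-poor vehicle libraries T100 to T103 had 6.05, 3.04, 2.45 and 3.67 CPM, and the papain libraries T104, T105, T107 and T112 had 8.25, 7.13, 7.18 and 3.51 CPM. The diets did not overlap with either treatment, whereas T112 after papain on the AhR-poor diet was below T100 and T103 after vehicle. Between the diets Aspn differed by 3.56 after vehicle (standard error 0.38, edgeR adjusted p = 4.20e-05) and by 6.38 after papain (standard error 0.46, adjusted p = 1.07e-07). The lowest AhR-poor library after papain was 27.4 times the highest I3C library. After papain, Aspn changed by an estimate of 0.78 with the AhR-poor diet (standard error 0.30, adjusted p = 0.0548) and -2.04 with the I3C diet (standard error 0.58, adjusted p = 0.00986). The second value passed, but in only 4 of 16 leave-one-out fits, its adjusted p reaching 0.0299 without T109.

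Lumican, a keratan sulfate proteoglycan of collagen fibrils, was hardly detected on the I3C diet. Lum (ENSMUSG00000036446) lies on chromosome 10 from 97565128 to 97572703, on the plus strand, 47.0 kb after Dcn. The vehicle libraries T108 to T111 of the I3C diet had 0, 4, 1 and 1 counts, and the papain libraries T106, T113, T114 and T115 had 6, 2, 0 and 2 counts. In AhR-poor mice Lum was at 3.38, 1.80, 1.56 and 1.82 CPM in the vehicle libraries T100 to T103 and at 8.08, 10.3, 9.09 and 4.62 CPM in the papain libraries T104, T105, T107 and T112. All AhR-poor libraries were above all I3C libraries, and the lowest AhR-poor library was 15.3 times the highest I3C library after vehicle and 31.6 times after papain. The fitted differences between the diets were 5.58 (standard error 0.55, edgeR adjusted p = 3.99e-05) and 6.83 (standard error 0.49, adjusted p = 1.12e-07), estimates that rest on a few counts on the I3C side. After papain Lum rose by 1.91 on the AhR-poor diet (standard error 0.33, adjusted p = 1.97e-04), with no overlap. Its estimate for papain in I3C mice was 0.66 (standard error 0.90, adjusted p = 0.625), which changed sign to -0.14 without T106.

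Fibromodulin, which binds collagen next to lumican and takes part in fibril assembly, had the largest log2 estimate of the 8 between the diets after papain. Fmod (ENSMUSG00000041559) lies on chromosome 1 from 134037254 to 134048277, on the plus strand. It was at 0.488, 0.331, 0.163 and 0.150 CPM in the I3C vehicle libraries T108 to T111 and at 0.0244, 0.257, 0.0571 and 0.0497 CPM in the I3C papain libraries T106, T113, T114 and T115. In AhR-poor mice it was at 5.01, 2.62, 1.06 and 2.15 CPM in T100 to T103 after vehicle and at 11.3, 4.84, 25.5 and 5.09 CPM in T104, T105, T107 and T112 after papain. The diets did not overlap with either treatment, but within each diet the vehicle and papain libraries did. After papain the highest AhR-poor library, T107, was 5.28 times the lowest, T105, while the same ratio for Lum was 2.24. Between the diets Fmod differed by 3.24 after vehicle, which did not pass (standard error 0.71, edgeR adjusted p = 0.0204), and by 6.96 after papain (standard error 0.83, adjusted p = 4.09e-05). The second estimate rests on 1, 8, 2 and 2 counts in the I3C papain libraries T106, T113, T114 and T115. Those of Lum (6.83) and Aspn (6.38) lay within its standard error. Papain was followed by changes of 2.10 on the AhR-poor diet (standard error 0.57, adjusted p = 0.0104) and -1.63 on the I3C diet (standard error 1.08, adjusted p = 0.272), neither of which passed.

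Prolargin, whose basic end binds heparan sulfate of basement membranes, was second to Dcn per kb of exon after papain on the AhR-poor diet. Prelp (ENSMUSG00000041577) lies on chromosome 1 from 133910304 to 133921414, on the minus strand, 115.8 kb before Fmod. It was at 1.46, 1.63, 1.77 and 1.59 CPM in the I3C vehicle libraries T108 to T111, and at 3.26, 2.34, 0.942 and 0.845 CPM in the I3C papain libraries T106, T113, T114 and T115. In AhR-poor mice it was at 12.1, 8.92, 6.30 and 6.52 CPM in T100 to T103 after vehicle and at 33.8, 49.2, 40.0 and 21.0 CPM in T104, T105, T107 and T112 after papain. In I3C mice the papain libraries lay on both sides of the vehicle libraries, with T106 and T113 above them and T114 and T115 below. Prelp was higher on the AhR-poor diet by 2.38 after vehicle (standard error 0.39, edgeR adjusted p = 0.00268) and by 4.28 after papain (standard error 0.40, adjusted p = 5.56e-06). The vehicle call was kept in 11 of 16 leave-one-out fits and lost without T108, T109, T110, T111 or T100, its adjusted p reaching 0.0144 without T111. It rose by 2.09 after papain on the AhR-poor diet (standard error 0.35, adjusted p = 3.30e-04), while the estimate for I3C mice was 0.20 (standard error 0.42, adjusted p = 0.767), or -0.27 without T106. Prelp shares 350 exonic bases with Gm15851 on the opposite strand, a gene with at most 6 counts in any library, and the strand setting of the counting was not given in the sources used here.

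Osteoglycin, also called mimecan, was the rarest member per length on the AhR-poor diet. Ogn (ENSMUSG00000021390) lies on chromosome 13 from 49608046 to 49624501, on the plus strand, 40.5 kb after Aspn. It had 9, 5, 1 and 4 counts in the I3C vehicle libraries T108 to T111, and 2, 0, 0 and 0 counts in the I3C papain libraries T106, T113, T114 and T115. It had 15, 11, 18 and 12 counts in the AhR-poor vehicle libraries T100 to T103, and 16, 18, 21 and 11 counts in the AhR-poor papain libraries T104, T105, T107 and T112. In CPM the AhR-poor libraries were above the I3C libraries with either treatment, by 1.13 times between the nearest libraries after vehicle. After papain the I3C libraries were all at or under the floor of 3 counts, so that Ogn was at least 5.90-fold higher in AhR-poor mice against the mean floor of those libraries, and it passed (edgeR adjusted p = 1.56e-04). The vehicle difference of 1.45 did not pass (standard error 0.53, adjusted p = 0.209). Within the I3C diet T106 after papain was above T110 after vehicle, and Ogn was at least 1.62-fold lower after papain, with an adjusted p of 0.0124 that did not pass. Within the AhR-poor diet the estimate was 0.33 (standard error 0.46, adjusted p = 0.636).

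Podocan, a member of class V, differed least between the diets. Podn (ENSMUSG00000028600) lies on chromosome 4 from 108014791 to 108096445, on the minus strand. The I3C vehicle libraries T108 to T111 had 3.65, 5.07, 3.62 and 3.78 CPM, and the I3C papain libraries T106, T113, T114 and T115 had 2.12, 1.41, 1.14 and 1.49 CPM. The AhR-poor vehicle libraries T100 to T103 had 5.15, 6.12, 3.78 and 5.71 CPM, and the papain libraries T104, T105, T107 and T112 had 3.50, 4.70, 3.20 and 2.88 CPM. After vehicle the diets overlapped, and after papain they did not, the I3C papain libraries being the lowest of all. Podn differed between the diets by 0.36 after vehicle (standard error 0.21, edgeR adjusted p = 0.526) and by 1.21 after papain (standard error 0.22, adjusted p = 5.50e-04). It fell by 1.38 on the log2 scale after papain on the I3C diet (standard error 0.22, adjusted p = 5.53e-05), a call kept in all 16 leave-one-out fits. With the AhR-poor diet the estimate was -0.53 (standard error 0.21, adjusted p = 0.0558). The span of Podn overlaps that of Scp2 on the same strand, with 0 shared exonic bases.

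**Figure D2:**
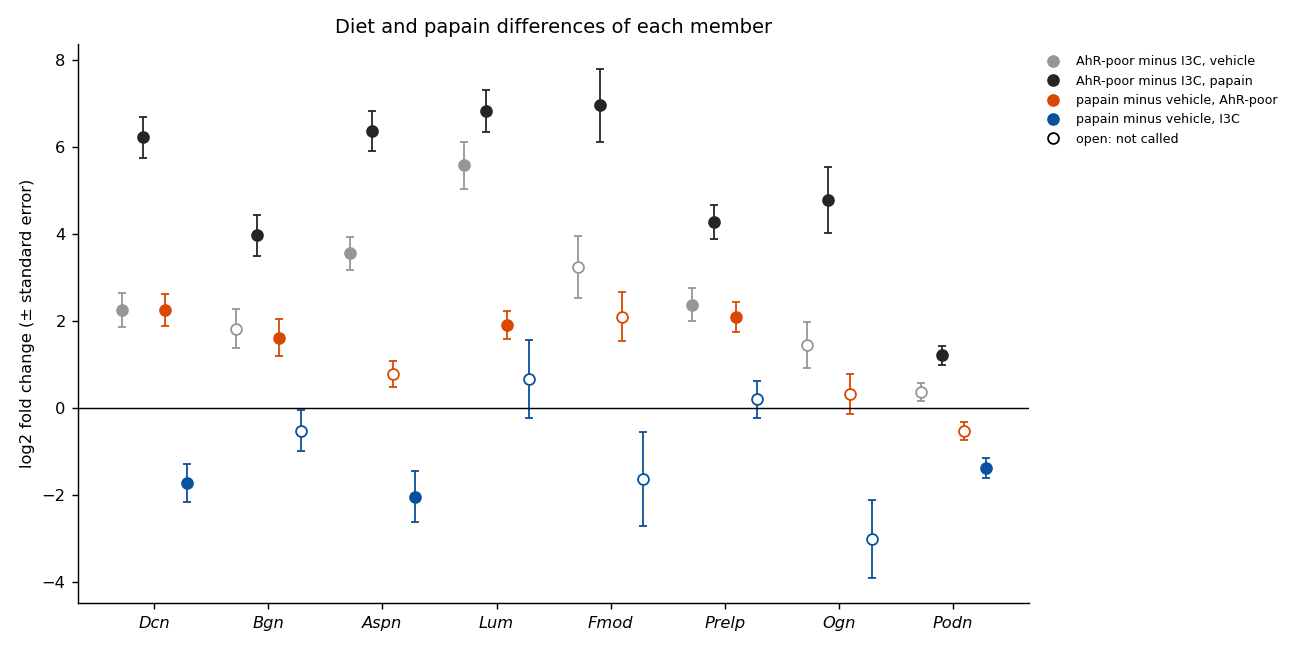
Log2 fold change of each member in the 4 comparisons with its standard error from edgeR, filled where the gene was called and open where it was not. All 8 black points, the difference between the diets after papain, are filled and above 0, from 1.21 for Podn to 6.96 for Fmod.

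Counted together, after vehicle 4 of the 8 members were called higher on the AhR-poor diet, against 1.59% of all genes tested, and 7 lay entirely above the I3C libraries, against 6.45% of all genes. Their median log2 fold change was 2.32, beside -0.01 over all genes tested. After papain 8 of 8 were called higher, against 7.15% of all genes, and lay entirely above the I3C libraries, against 12.5% of all genes, and the median was 5.51, or 5.25 with Ogn at its bound, beside 0.01 over all genes. On the AhR-poor diet 4 were called higher after papain (Dcn, Bgn, Lum and Prelp), against 6.04% of all genes, and the same 4 lay entirely above the vehicle libraries, against 17% of all genes, with a median of 1.77. Of the 8, 3 were called lower after papain on the I3C diet (Dcn, Aspn and Podn), against 5.29% of all genes, and the same 3 lay entirely below the vehicle libraries, against 17.3% of all genes. Here 0 were called higher, against 3.69% of all genes, with a median of -1.51, or -1.04 with Ogn at its bound, beside -0.04 over all genes. In bulk libraries, fewer cells of a type and less RNA per cell cannot be told apart. The comparisons of the diets and of the treatments share libraries, and their values are set side by side here only as descriptions.

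Whether the response to papain differed between the diets was tested as an interaction. Of the 8 members, 0 passed an adjusted p of 0.01 in edgeR, beside 0.0181% of all genes. The Wald test of DESeq2 called 2 (Dcn and Aspn). The estimates were above 0 for all 8, with a median of 2.48 beside 0.03 over all genes. Most members vary together over the libraries, so the 8 estimates are not independent. The largest was that of Dcn, at 3.98 (standard error 0.58, edgeR adjusted p = 0.0165), and the smallest was that of Podn, at 0.85 (standard error 0.30, adjusted p = 0.243).

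The order of the members by level was set by CPM per kb of annotated exon, since longer transcripts give more reads. In vehicle-treated mice on the I3C diet, Dcn (1.22 ± 0.248 CPM per kb, SD, n = 4) and Podn (0.944 ± 0.164) were the most abundant, with overlapping SDs. Bgn and Prelp came next, and Aspn, Fmod, Ogn and Lum followed at 0.135 CPM per kb or less. In papain-treated mice on the I3C diet, the means of Prelp, Bgn, Dcn and Podn lay between 0.361 and 0.511 CPM per kb with overlapping SDs, so these 4 could not be ordered. On the AhR-poor diet Dcn was first by more than the SDs in both treatments, at 5.79 ± 1.99 CPM per kb after vehicle and 27.5 ± 8.76 after papain. After vehicle, Prelp (2.34 ± 0.743), Bgn, Aspn, Podn (1.22 ± 0.238), Lum and Fmod (0.820 ± 0.504) followed, each with an SD that overlapped that of the next, and Ogn (0.143 ± 0.0281) was last. After papain, Prelp (9.96 ± 3.28) and Bgn (5.88 ± 1.71) followed Dcn with overlapping SDs, Fmod (3.53 ± 2.93), Lum and Aspn could not be separated from each other, and Podn (0.836 ± 0.186), whose SD overlapped that of Fmod, and Ogn (0.189 ± 0.111) had the lowest means.

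The make-up of the summed level shifted accordingly. Summed over the 8 genes, the level was 16.8 ± 1.68 CPM after vehicle and 8.06 ± 4.43 after papain on the I3C diet, and 68.1 ± 21.1 after vehicle and 263 ± 80.5 after papain on the AhR-poor diet (SD, n = 4). Podn held 27.6% ± 5.05 of the level per kb after vehicle and 24.6% ± 10.6 after papain on the I3C diet, 8.70% ± 2.54 after vehicle on the AhR-poor diet and 1.64% ± 0.461 after papain. Dcn held 35.1% ± 4.36 and 20.1% ± 4.86 on the I3C diet and 39.2% ± 2.19 and 50.9% ± 2.12 on the AhR-poor diet. Per kb, the ratio of Dcn to Podn had a range of 0.391 to 1.72 over the 8 I3C libraries, of 3.24 to 7.16 over the AhR-poor vehicle libraries and of 22.9 to 44.8 over the AhR-poor papain libraries.

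**Figure D3:**
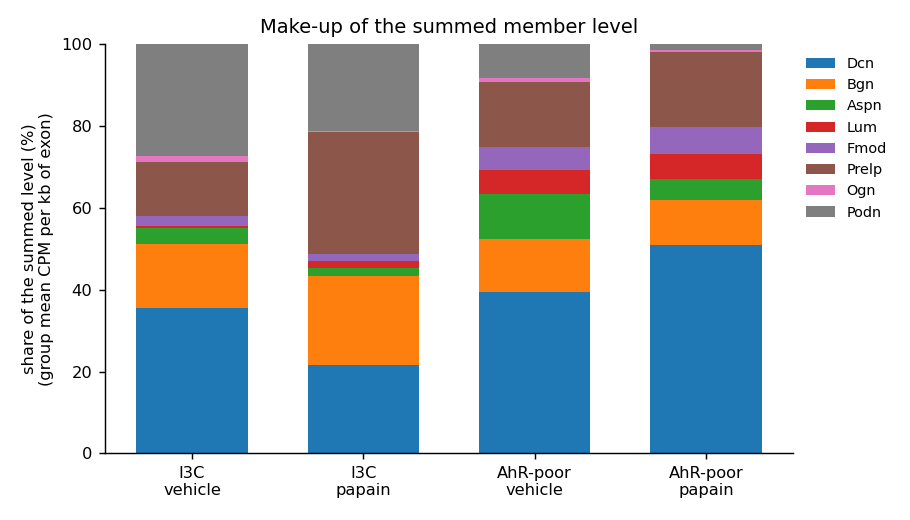
Share of each member in the summed level of the 8 genes, in percent of the group means of CPM per kb of exon, with 1 bar per group of 4 libraries. Podn takes 27.4% of the bar of vehicle-treated I3C mice and 1.55% of that of papain-treated AhR-poor mice, where Dcn takes 51.0%.

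Single libraries moved several members together. Of the AhR-poor papain libraries, T112 was the lowest for 7 of the 8 members, and of the AhR-poor vehicle libraries T100 was the highest for 6 and T102 the lowest for 6. Among the I3C papain libraries T106 was the highest for 6. Over the 16 libraries the correlation of a member's log2 CPM with the mean of the other members was between 0.90 and 0.98 for 7 members and 0.62 for Podn, values that describe libraries falling into groups. Among the 13019 other genes with a mean of at least 1 CPM, those most like the members over the 16 libraries were Col6a2 (r = 0.986), Col5a1 (0.985), Col1a2 (0.979), Timp2 (0.977) and Col14a1 (0.977). All but Timp2, an inhibitor of metalloproteinases, encode collagen chains.

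Most markers of dermal fibroblasts moved with the members between the diets and after papain on the AhR-poor diet. On the I3C diet 3 of the 8 members were called lower after papain, and 0 of the markers. Median log2 fold changes there were -1.51 for the members and -0.18 for the markers. Most of the markers had few counts on that diet, where a fall can hardly be called. The list of 18 such markers holds no member. Of these, 11 were called higher on the AhR-poor diet after vehicle and 14 after papain, against 1.59% and 7.15% of all genes. After papain 14 were called higher than after vehicle on the AhR-poor diet, against 6.04% of all genes. On the I3C diet 0 of the markers were called in either direction after papain, against 3.69% higher and 5.29% lower. Their summed level was 97.6 to 121 CPM after vehicle and 176 to 187 after papain on the I3C diet, and 182 to 258 and 419 to 762 CPM on the AhR-poor diet. Thy1, which T cells also express, held 73.6% and 86.2% of that sum on the I3C diet. Without Thy1, Fbln1 and Dpp4, the sum of the other 15 markers was at most 9.99 CPM in any I3C library and at least 89.2 CPM in any AhR-poor library. Mfap5, Mfap4 and Twist2 were at or under the floor in every I3C library. T112, low for the members, also had the lowest fibroblast marker level of its group, and T100 the highest of its group. T106 was also the highest of its group, at a mean log2 CPM of -1.03. T102, the lowest of its group for most members, was at 1.67, above T101 at 1.45. The other marker lists differed in how many genes were called higher on the AhR-poor diet. Over all genes the shares were 1.59% after vehicle and 7.15% after papain. Among endothelial markers 7 of 9 were called after vehicle and 8 of 9 after papain, and among macrophage markers 3 and 7 of 7. Mast cell markers had 1 and 5 calls of 6, melanocyte markers 2 and 5 of 6, skeletal muscle markers 0 and 4 of 5 tested, neutrophil markers 0 and 5 of 8, pericyte and smooth muscle markers 1 and 4 of 8, and Schwann cell markers 0 and 1 of 7. Adipocyte markers had 0 and 3 calls of 4 tested, Langerhans cell markers 0 and 2 of 7, T cell markers 0 and 1 of 7, and eccrine sweat gland markers 0 of 7 with either treatment. Endothelial markers summed to 2.70 to 4.97 CPM in I3C libraries and 13.9 to 62.6 in AhR-poor libraries, and the macrophage markers to 4.43 to 10.1 and 14.2 to 236 CPM. For tendon and fascia, 2 and 5 of 10 markers were called higher, and Tnmd, Chad and Kera were at or under the floor in both I3C groups. The summed tendon list is mostly Egr1, an early response gene, and was 1840 to 5730 CPM in I3C and 1510 to 3570 in AhR-poor libraries. The part of these cells in the levels of the members was not tested.

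Relative to the mean log2 CPM of the 18 fibroblast markers, the members did not move alike. Podn went from 3.39 ± 0.12 above the markers (log2 difference, SD, n = 4) in vehicle-treated I3C mice to 2.12 ± 0.40 after papain, 0.56 ± 0.47 on the AhR-poor diet after vehicle and -1.71 ± 0.31 after papain, without overlap between these 4 groups. Dcn lay between 1.64 and 4.61 above the markers in all 16 libraries, with group means of 4.20, 2.34, 3.22 and 3.73 in the same order. On the I3C diet its papain libraries (1.64 to 2.90) were all below its vehicle libraries (3.82 to 4.61). Lum was below the markers, at -3.19 ± 0.99 and -2.59 ± 1.08 on the I3C diet and -0.76 ± 0.27 and -0.59 ± 0.04 on the AhR-poor diet after vehicle and papain. Bgn and Prelp were above the markers in every library, and Ogn was below them in every library. In I3C mice some markers and members are at the floor, where log2 CPM depends on the 0.5 counts added before the logarithm.

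**Figure D4:**
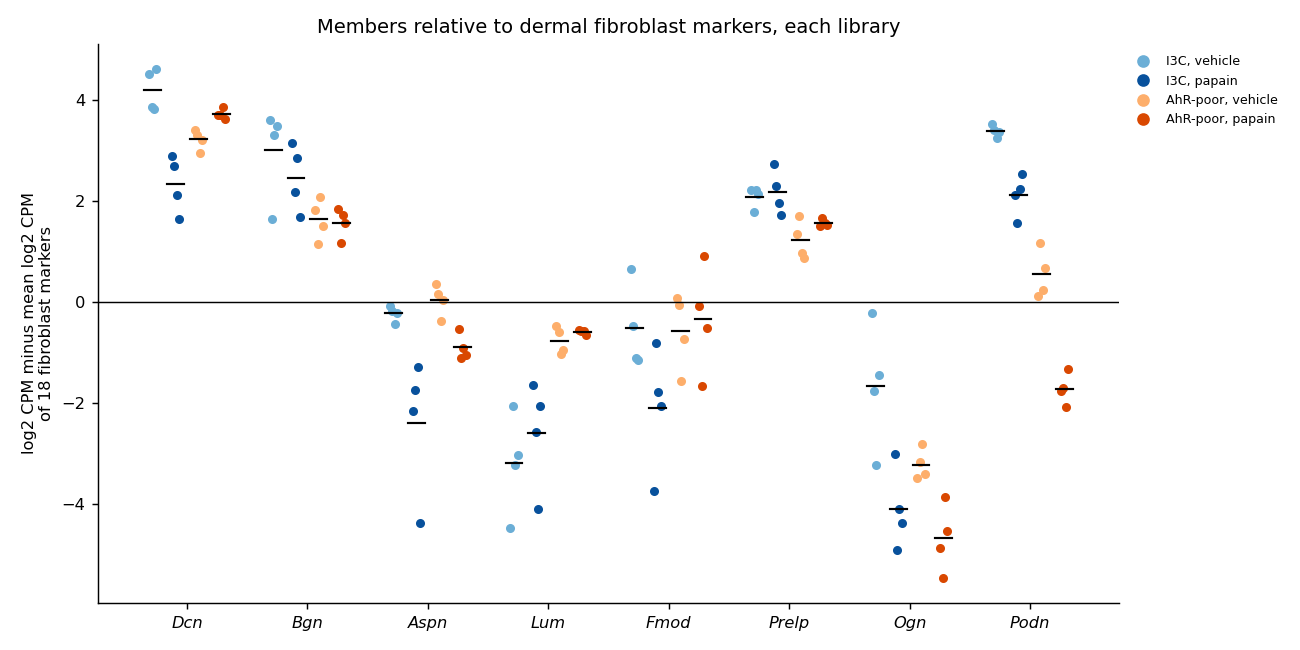
Log2 CPM of each member minus the average log2 CPM of the 18 fibroblast markers, with 1 point per library, a line at the mean of the 4 libraries and colors for the 4 groups. The Podn points step down from 3.39 to -1.71 on average across the groups. The Dcn points lie between 1.64 and 4.61, and on the I3C diet those after papain are all below those after vehicle.

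The promoters of the members were searched for the core of the xenobiotic response element that AhR binds, GCGTG on either strand, which has no overlap with the other motifs searched. RefSeq windows of 250 bases before the start site (GRCm38.p6) were at hand for 6 members in 7 windows, with 2 for Podn and none for Dcn and Lum. Bgn and Podn held the core and Aspn, Fmod, Prelp and Ogn did not, while 28.2% of all 32851 windows of this length hold it. The windows of Aspn and Ogn, neighbours on chromosome 13, each held TATAAA on either strand 2 times (12.4% of all windows hold it), and the AP-1 motif TGANTCA was in 0 of the 7 windows, beside 6.75% of all windows. Base content ranged from 30.0% G and C in Aspn to 78.0% in a window of Podn, with a median of 52.4% over all windows. The window of the AT-richest member and 1 window of each of the 2 members with the core are shown 5′ to 3′ on the strand of the gene. The core is in capitals. They lie at chr13:49544193-49544442 on the plus strand for Aspn, at chrX:73483351-73483600 on the plus strand for Bgn and at chr4:108030987-108031236 on the minus strand for Podn, and they share 0 bases with annotated exons, the last inside the annotated span of Podn, which also has a start site further upstream.
Aspn: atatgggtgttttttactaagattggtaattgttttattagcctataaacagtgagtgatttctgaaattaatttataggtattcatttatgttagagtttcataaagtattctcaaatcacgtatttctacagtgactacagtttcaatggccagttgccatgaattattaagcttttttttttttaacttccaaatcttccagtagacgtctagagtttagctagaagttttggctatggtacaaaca
Bgn: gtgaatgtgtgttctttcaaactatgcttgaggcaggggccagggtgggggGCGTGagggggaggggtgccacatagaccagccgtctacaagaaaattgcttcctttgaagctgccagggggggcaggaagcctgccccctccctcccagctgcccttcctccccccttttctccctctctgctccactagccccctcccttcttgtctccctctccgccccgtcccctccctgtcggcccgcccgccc
Podn: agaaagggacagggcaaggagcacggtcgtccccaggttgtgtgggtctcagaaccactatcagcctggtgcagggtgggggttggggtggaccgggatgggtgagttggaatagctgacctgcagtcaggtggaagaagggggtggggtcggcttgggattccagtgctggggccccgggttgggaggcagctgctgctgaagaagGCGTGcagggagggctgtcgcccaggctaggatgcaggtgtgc
The core stood 1 time in the Bgn window and 1 time in this Podn window. The other Podn window, at chr4:108031955-108032204, held it 2 times and is not shown. Between the diets neither gene was called after vehicle, and both were called higher on the AhR-poor diet after papain, like the 6 other members. A match of these letters is a description of the sequence.

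Most members lie in 3 groups of related genes, so the neighbours were compared. On chromosome 10, Dcn and Lum are followed by Kera and Epyc, which encode keratocan and epiphycan. Kera was at 0 counts in both I3C groups and at most 4 counts in any AhR-poor library, and Epyc, also at 0 counts on the I3C diet, was called after papain, at least 2.70-fold higher in AhR-poor mice (edgeR adjusted p = 0.00236). On chromosome 13, Aspn and Ogn lie beside Omd, which had at most 8 counts in any library, and Ecm2, which was called higher on the AhR-poor diet after vehicle by 2.82 (standard error 0.36, adjusted p = 1.60e-04) and after papain by 4.15 (standard error 0.37, adjusted p = 5.31e-07). On chromosome 1, Optc beside Prelp had at most 8 counts in any library and was not called, and Btg2 beside Fmod, a gene outside the family, had log2 fold changes of -0.55 and -0.04 between the diets. Scp2 and Cpt2 beside Podn and Haus7 beside Bgn had log2 fold changes between -0.05 and 0.15 between the diets. Some other neighbours outside the family differed more, though these were not called. Trex2 near Bgn was at 0.58 after vehicle, and Nol8 and Iars near Ogn were at -0.33 and -0.42 after papain.

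Of 10 other small leucine-rich proteoglycan genes, 1 was called higher on the AhR-poor diet after vehicle (Ecm2), against 1.59% of all genes, 3 after papain (Ecm2, Epyc and Chad), against 7.15%, and 0 lower. Chad, which encodes chondroadherin, was at least 10.6-fold higher in AhR-poor than in I3C mice after papain and rose by 2.70 after papain in the former (standard error 0.69, adjusted p = 0.00708). Tsku, which encodes tsukushi, was at 3.30 and 4.41 CPM on the I3C diet and 3.19 and 4.54 CPM on the AhR-poor diet after vehicle and papain, with log2 fold changes of -0.05 and 0.05 between the diets.

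Collagen genes whose products carry or bind these proteoglycans mostly moved with the members between the diets. Col1a1, Col1a2 and Col3a1 of this list are also among the fibroblast markers above. Of the 11 genes, 8 were called higher on the AhR-poor diet after vehicle, against 1.59% of all genes, and 10 after papain, against 7.15%. Medians were 2.44 and 4.60. Col3a1, a fibril chain of the dermis, had the largest differences, 5.47 (standard error 0.55, edgeR adjusted p = 1.11e-04) and 6.64 (standard error 0.54, adjusted p = 2.52e-06). After papain on the I3C diet 1 of the 11 was called higher, against 3.69% of all genes, and 3 lower, against 5.29%. Among the latter, Col6a1 fell by 2.10 on the log2 scale (standard error 0.15, edgeR adjusted p = 1.18e-08). Col12a1 was the one called higher on the I3C diet, by 1.51, and it rose by 1.14 on the AhR-poor diet. It had differences of -0.36 and -0.73 between the diets, neither of which passed.

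Enzymes that build the glycosaminoglycan chains were called between the diets about as often as other genes. Of 30 tested, 0 were called after vehicle, against 1.59% of all genes called higher, and 2 after papain (Csgalnact1 and Chst11, both higher on the AhR-poor diet), against 7.15%, with medians of 0.00 and 0.17. Csgalnact1, which starts chondroitin chains, was at 12.6 ± 5.18 CPM after vehicle and 1.13 ± 0.537 after papain on the I3C diet, and at 12.0 ± 2.39 and 4.77 ± 0.931 CPM on the AhR-poor diet (SD, n = 4). It fell by 3.47 on the I3C diet (standard error 0.34, edgeR adjusted p = 8.38e-07) and by 1.33 on the AhR-poor diet (standard error 0.30, adjusted p = 0.00274) on the log2 scale. Chst11, a chondroitin sulfotransferase, rose by 2.22 after papain on the AhR-poor diet (standard error 0.43, adjusted p = 6.78e-04) and had 0.41 on the I3C diet (standard error 0.47, adjusted p = 0.547). Chst3, a related sulfotransferase, fell by 1.48 with the AhR-poor diet and by 1.37 with the I3C diet. Papain was followed by 5 calls higher among the 30 with the AhR-poor diet, against 6.04% of all genes. Csgalnact1 and Chst3 were called lower there, and the share of all genes called lower is not given here. With the I3C diet there were 3 higher and 4 lower, against 3.69% and 5.29%.

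Receptors and ligands of these proteoglycans were called in part. Of 19 tested, 1 was called higher on the AhR-poor diet after vehicle, against 1.59% of all genes, and 6 after papain, against 7.15%. The first was Kdr, a receptor of endothelial cells. Cd14, the co-receptor of the toll-like receptors that free biglycan and decorin engage, was at 1.43 and 4.26 CPM on the I3C diet and at 2.98 and 154 CPM on the AhR-poor diet after vehicle and papain. It rose by 5.69 after papain on the AhR-poor diet (standard error 0.67, edgeR adjusted p = 2.52e-05) and had 1.60 on the I3C diet (standard error 0.71, adjusted p = 0.100). Tlr2 and Tlr4, named here after their values were seen, rose by 2.75 and 2.22 on the AhR-poor diet and had 0.98 and 0.83 on the I3C diet, which did not pass. Neutrophil and macrophage markers moved with these genes. After papain 8 of 8 and 6 of 7 were called higher on the AhR-poor diet, against 6.04% of all genes. On the I3C diet these were 3 of 8 and 0 of 7, against 3.69%. The neutrophil markers summed to 0.861 to 1.89 CPM after vehicle and 44.6 to 74.6 after papain on the I3C diet, and to 4.13 to 5.08 and 82.4 to 562 on the AhR-poor diet. After papain on the I3C diet the sum was mostly Cxcr2, S100a9 and S100a8, with means of 24.2, 16.9 and 16.6 CPM. The other neutrophil markers had means of at most 0.739 CPM there. Ly6g, a defining neutrophil marker, was at 0 counts in every library but those of papain-treated AhR-poor mice. The part of these cells in the levels of the receptors was not tested. Tgfb3, a TGF-β ligand, fell by 2.07 after papain on the I3C diet (standard error 0.31, adjusted p = 4.11e-05) and had -0.80 on the AhR-poor diet (standard error 0.29, adjusted p = 0.0404).

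The list of proteases known to cut or process these proteoglycans also held Pcolce, an enhancer of procollagen processing. Its genes were called mainly after papain. Of 13 tested, 8 (Pcolce among them) were called higher after papain on the AhR-poor diet, against 6.04% of all genes. On the I3C diet 3 were called higher and 1 lower, against 3.69% and 5.29%. Mmp13, a collagenase that also cuts several members, rose by 3.96 on the AhR-poor diet (standard error 0.76, edgeR adjusted p = 0.00124) and by 3.45 on the I3C diet (standard error 0.71, adjusted p = 0.00179). Between the diets 2 were called higher after vehicle and 3 after papain, against 1.59% and 7.15% of all genes. Among them Adamts4, an aggrecanase, was at 2.84 and 5.17 and Pcolce at 1.97 and 5.26. Bmp1, which removes the propeptides of biglycan and decorin, was at 90.1 to 98.6 CPM in the 4 group means and was not called in any comparison.

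Other proteoglycan genes were called in part. Of 16 tested, 1 was called higher on the AhR-poor diet after vehicle (Vcan) and 5 after papain, against 1.59% and 7.15% of all genes. Vcan, which encodes the large chondroitin sulfate proteoglycan versican, was at 0.180 and 1.07 CPM on the I3C diet and 1.94 and 25.8 CPM on the AhR-poor diet after vehicle and papain, and rose after papain on both, by 3.73 (standard error 0.44, edgeR adjusted p = 1.65e-05) and 2.57 (standard error 0.65, adjusted p = 0.00625) on the AhR-poor and I3C diets. Sdc1, the syndecan of keratinocytes, was at 957 to 1250 CPM in the group means and had no call. Sdc3 rose on both diets, by 3.12 on the AhR-poor and 4.21 on the I3C diet.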

How the data were processed

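RNA of dispase-separated footpad epidermis was sequenced from 16 libraries of 4 groups. The authors aligned reads to mm10 with STAR and deposited raw counts per gene without normalization. The counting tool, annotation release and strand setting are not given in the sources used here. The unit on which a library was sequenced is not known. No 2 libraries of a group matched within sampling noise (lowest chi-square per degree of freedom 7.08). Of 50600 identifiers, 50376 matched GENCODE M21 (GRCm38), the source of symbols and positions. Groups came from the sample labels alone.

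Counts were fitted in edgeR 4.0.16 (R 4.3.3) with TMM factors, between 0.937 and 1.07, for 22155 genes with at least 10 counts in total, as 1 mean per group over all 16 libraries, and tested with the robust quasi-likelihood F test. SEs were taken from the F statistic. The call threshold was an adjusted p of 0.01 with a log2 fold change beyond 1 (no minimum for the interaction). CPM used TMM-scaled totals, with 0.5 counts added for log2 values. A group with 3 counts or fewer in every library was set to that floor, which covers counting error only. P-values measure the spread between these libraries. The fit was tested on simulated data. That simulation gave every gene the same spread and changed only well-counted genes, so it does not cover members with few counts. DESeq2 1.42.0, other scalings, filters and thresholds, and fits without each library were alternatives.

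Beyond the 8 members, the genes named are the 3 with the highest mean CPM or the largest called change of each list, and the neighbours of members, chosen in part from these. The members and lists were chosen with earlier results of these data known.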

Additional observations from a re-analysis of the deposited data

Results flagged for a closer look

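The papain response of Dcn differed between the diets by 3.98 on the log2 scale, a difference that was tested itself and had an edgeR adjusted p of 0.0165, below 0.05 but not below 0.01. Dcn was lower after papain in 4 of 4 I3C libraries and higher in 4 of 4 AhR-poor libraries than in any vehicle library of the same diet.

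A library far from the others of its group was looked for in all 32 combinations of the 8 members and 4 groups, by the gap to the nearest library as a share of the range of the group. For independent values with a normal spread, chance flags about 1 in 20 groups, and 6 were found here. That rate need not hold for low counts or for members that move together, so no excess is read from it. For vehicle on the I3C diet these were the low level of Bgn in T109, with a gap of 0.895 of the range, and the high level of Podn in the same library, with 0.887. For papain on the I3C diet they were the high levels of Fmod in T113 (0.859) and of Ogn in T106 (1, since the other libraries had 0 counts). On the AhR-poor diet they were the high level of Lum in T100 after vehicle (0.854) and that of Ogn in T107 after papain (0.844).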

How the results depend on the processing

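The 8 calls between the diets after papain were made in every alternative that tested them, and a minimum of 10 counts in every library left 4 members tested, all 4 called. After vehicle, 4 members were called, 2 under the filter of 10 counts in every library, which tested 4, and 2 to 5 when a library was left out, with 2 without T108, T109, T110, T111 or T100. For the rise after papain on the AhR-poor diet, Bgn lost its call when only library size was scaled (adjusted p = 0.0110) or when genes with at least 1 count were all tested (adjusted p = 0.0167). For the fall after papain on the I3C diet, 1 member was called when genes with at least 1 count were all tested and 1 when the model held the compared libraries alone, in place of 3, and 1 to 3 when a library was left out, with 1 without T108, T109, T111, T113, T114, T115, T101 or T103. For the interaction, 1 member was called with filterByExpr, 1 with 10 counts in every library, 1 at an adjusted p below 0.05, 2 with DESeq2, and 0 to 1 when a library was left out, with 1 without T106 or T112. Of 892 values of single members under the alternatives, 818 kept their direction and side of the threshold, 51 fell below it, 20 passed it and 3 changed sign. These were Ogn after papain on the AhR-poor diet without T107 (-0.08, with a range of -0.08 to 0.49 over the fits without 1 library), Lum after papain on the I3C diet without T106 (-0.14, range -0.14 to 1.65) and Prelp there without T106 (-0.27, range -0.27 to 0.45). The cause was not tested. No paired analysis was possible because no replicate code occurs in more than 1 group. Depth limits Lum, Aspn, Fmod and Ogn on the I3C diet, where some libraries hold 3 counts or fewer.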
